A study of Homo sapiens with 4 samples.

Results

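The comparison set the 2 A375 libraries that carried a MAGE-A1 construct (the treated libraries, A375-MAGE-A1-OE and A375-shMAGE-A1) against the 2 that carried a control plasmid (A375-pcDNA-control and A375-pRNAT-scramble). The constructs were meant to act in opposite directions on MAGE-A1, so the genes described are those that moved the same way with either. A gene was chosen when both treated values lay above, or below, both control values by at least 1 log2 unit on log2(RPKM + 1), where RPKM is reads per kilobase of transcript, scaled to the size of the library. The distance between the nearest treated and the nearest control value is called the gap. Symbols of small RNA genes (starting with SNOR, SCARNA, RNU, or MIR and a digit) were kept apart. Of 23284 symbols, 13567 without a small RNA symbol reached 1 RPKM in at least 1 library, and 210 of these met the rule, 137 higher (1.01%) and 73 lower (0.538%) in both treated libraries. Of 473 small RNA genes at that level, 273 were higher (57.7%) and 10 lower (2.11%). These values chose the genes, so they are given as a description, with no test.

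A375 is a human melanoma cell line, and all 4 libraries came from A375 cells stably transfected with a plasmid. The vector library carried empty pcDNA3, the overexpression library pcDNA3-MAGE-A1, the scramble library pRNAT-scramble and the knockdown library the hairpin plasmid pRNAT-shMAGE-A1. Each group was 1 culture and 1 library, so overexpression and knockdown are not replicates of each other, nor are vector and scramble. There was no replicate error to set a gap against, no test was run, and a gap cannot be told apart from a difference between cultures or library preparations. Poly(A) RNA was enriched and sequenced as a whole transcriptome on an Ion Torrent instrument. The extraction text of the labels names 2 samples, and whether the 4 libraries were prepared together is not stated there.

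MAGE-A1 is a cancer-testis antigen, a protein of germ cells that many tumours also make. The gene groups that recur below belong to a few well-known systems. In the integrated stress response, amino acid shortage, unfolded protein or other stress leads to phosphorylation of the translation factor eIF2 alpha, after which the transcription factors ATF4 and CHOP switch on genes for amino acid uptake and synthesis, tRNA charging and feedback. Replication-dependent histone messages end in a stem-loop without a poly(A) tail, and snoRNAs, small guides for ribosomal RNA modification that are cut from introns of host genes, carry no such tail either. Protocadherins, HOX factors and matrix glycoproteins belong to adhesion and patterning.

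Depth, estimated from the steps in low RPKM values, was 24530000 reads in the vector, 16350000 in the scramble, 12630000 in the overexpression and 19630000 in the knockdown library. Small RNA genes took 45.9% and 29% of summed RPKM in the vector and scramble libraries and 86.9% and 77.5% in the overexpression and knockdown libraries, so this share itself lay higher in both treated libraries. Its part in the results was not tested. Summed RPKM of all other genes was 378558 and 393014 in the controls and 426522 and 570786 in the treated libraries. MAGEA1 stood at 1.803 and 0.767 RPKM in the vector and scramble libraries, at 126 with overexpression and at 0.473 with knockdown. Scramble and knockdown were thus both under 1 RPKM and lay closer together than the controls, so these values show little of a knockdown. MAGEA1 and the genes of the series title, JUN, IL8 and ARHGAP29, lay above both controls in the overexpression library and below both in the knockdown library, so none met the rule. The neural crest factor SOX10 was at 281 to 336 RPKM in all 4 libraries and MITF at 7.17 to 11.4, while 5 of 14 melanocyte and melanoma markers (PMEL, MLANA, TYR, TYRP1 and GPM6B) stayed under 1 RPKM throughout. Of markers of other cell types, 5 of 9 for fibroblasts, 6 of 8 for keratinocytes (KRT1 and DSG3 at 0), 6 of 8 for leukocytes, 6 of 7 for endothelium and 4 of 7 for neurons were under 1 RPKM in every library.

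In the sentences that follow, control values are given with vector before scramble and treated values with overexpression before knockdown, and "against" sets the control values before the treated ones. Among the 137 higher genes the median difference from the mean of the controls was 1.82 log2 units with overexpression and 1.73 with knockdown. Overexpression lay further from the controls in 72 of them and knockdown in 65. The treated libraries were within 0.5 log2 of each other for 66 and more than 1 apart for 37, and the controls were within 0.5 for 113. Gaps were mostly narrow, with a median of 1.30 and 24 of 2 or more. Among the 73 lower genes the medians were -1.64 with overexpression and -1.42 with knockdown, the treated libraries were within 0.5 log2 for 47 and more than 1 apart for 7, and the median gap was 1.20. When the libraries were brought to a common upper quartile, the split turned from 137 higher and 73 lower to 99 higher and 123 lower. Taken alone, the overexpression library lay past both controls by the same 1 log2 unit for 893 genes upward (6.58%) and 727 downward (5.36%), and the knockdown library for 1060 (7.81%) and 896 (6.6%), both set against the same controls.

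**Figure D1:**
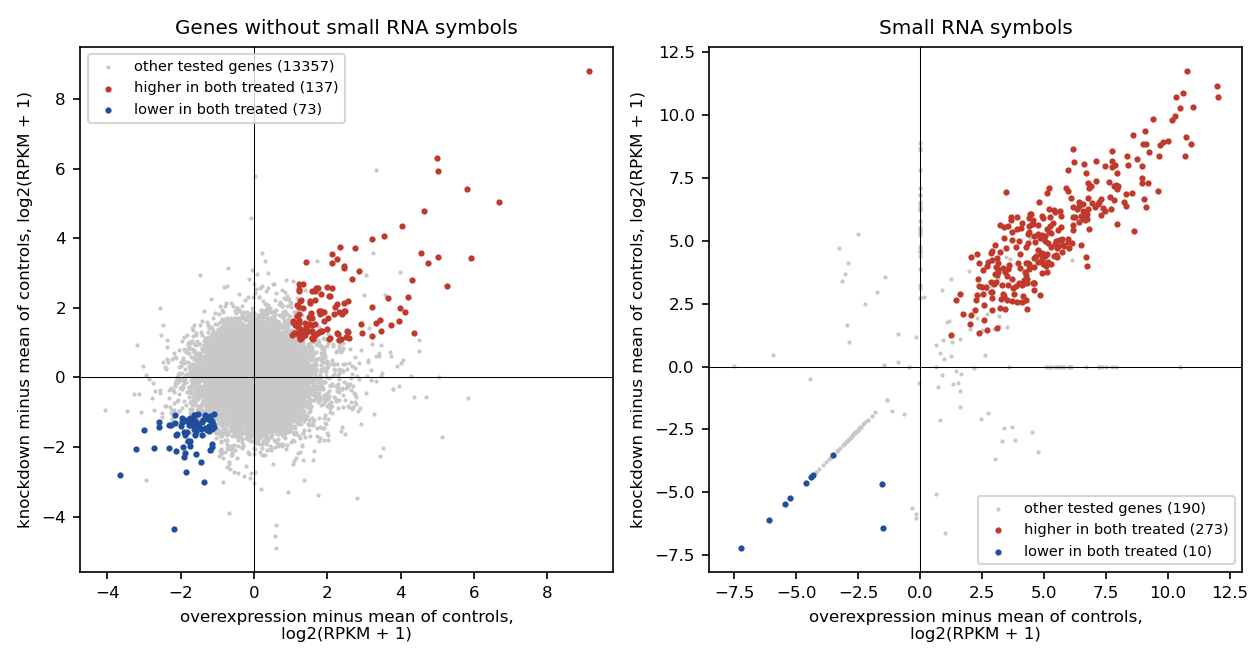
Each point is a gene, at its difference from the mean of both controls in the overexpression library (horizontal) and the knockdown library (vertical), on log2(RPKM + 1). In the left panel 137 red and 73 blue points met the rule among 13567 genes. In the right panel 273 of 473 small RNA genes are red.

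Genes of the ATF4 and CHOP stress response formed the first protein-coding group. Of 29 measured list members 8 were higher in both treated libraries (27.6%, against 1.01% of all tested genes), and none was lower. At any gap 22 had both treated values above both controls and 1 below, against 2571 and 2376 of all 13567 tested genes. The list median was 1.51 log2 units above the controls, against 0.01 over all tested genes. Taken alone, the overexpression library gave a list median of 2.59 with 21 of 29 genes past both controls, and the knockdown library 0.71 with 9. In all 8 the overexpression library was the higher of the treated libraries. The 8 were GDF15, CHAC1, DDIT3, TRIB3, ADM2, PPP1R15A, NUPR1 and CBS.

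DDIT3 encodes CHOP itself and was at 32.02 and 34.2 RPKM in the controls and 622 and 169 in the treated libraries, a gap of 2.27. TRIB3, a pseudokinase that feeds back on ATF4 and CHOP, was at 23.2 and 20.9 against 291 and 112. PPP1R15A (GADD34), the stress-induced subunit of the phosphatase that restores eIF2 alpha, was at 30.9 and 38.1 in the controls and 465 and 98.6 in the treated libraries. In each of these genes the controls lay close together and the overexpression library stood well above the knockdown library. CHAC1, an enzyme of glutathione breakdown, was at 2.06 and 3.24 RPKM in the controls and 95.1 and 34.5 in the treated libraries, a gap of 3.07. GDF15, a secreted stress cytokine of the TGF-beta family, was at 5.89 and 5.79 against 161 and 81.5, a gap of 3.58 and the widest of any protein-coding gene other than a histone. ADM2, a secreted peptide of the calcitonin family, was at 0.423 and 0.683 in the controls and 26.1 and 4.72 in the treated libraries. NUPR1, a stress-induced nuclear protein, showed unequal controls (0.185 and 1.2 RPKM) below 23.9 and 4.01. CBS, an enzyme of cysteine synthesis, met the rule most narrowly (16.7 and 20.4 against 116 and 41.95, a gap of 1.004).

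Other ATF4 targets did not reach the gap. Asparagine synthetase, ASNS, was at 22.2 and 23.1 RPKM in the controls and 259.8 and 44.2 in the treated libraries, and ATF4 itself at 184 and 249 against 345 and 534. ATF3 was at 5.41 and 5.602 against 104 and 7.66, so that its high value belonged to the overexpression library. MTHFD2 (70.5 and 66.05 against 338 and 70.97), ALDH1L2 (4.36 and 4.24 against 31.1 and 1.93) and PSAT1 (99.5 and 81.04 against 264 and 72.6), enzymes of one-carbon and serine metabolism, were high with overexpression only among these 4 libraries, and with knockdown ALDH1L2 and PSAT1 lay below both controls.

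The upstream sequences of 3 of these genes and of 1 histone gene are shown as examples. They were picked because their first 250 bases before the start site hold known stress or histone promoter elements. Each gene was higher in both treated libraries, but the 3 stress genes were highest with overexpression and HIST2H2AC with knockdown. The sequences come from RefSeq (GRCh38.p14) and are printed 5′ to 3′ on the strand of the gene. Capitals mark TGATGCAA (the ATF4-CHOP element) and CCAAT in CHAC1, TGACTCA (the AP-1 site) and CCAAT in DDIT3, TGACGTCA (the cyclic AMP response element) and TATAAA in PPP1R15A, and ATTTGCAT (the octamer), CCAAT and TATAAA in HIST2H2AC, each searched on both strands. CHAC1 lies upstream at chr15:40953221-40953470 (plus strand), DDIT3 at chr12:57520515-57520764 (minus strand), PPP1R15A at chr19:48872171-48872420 (plus strand) and HIST2H2AC at chr1:149886668-149886917 (plus strand).
CHAC1: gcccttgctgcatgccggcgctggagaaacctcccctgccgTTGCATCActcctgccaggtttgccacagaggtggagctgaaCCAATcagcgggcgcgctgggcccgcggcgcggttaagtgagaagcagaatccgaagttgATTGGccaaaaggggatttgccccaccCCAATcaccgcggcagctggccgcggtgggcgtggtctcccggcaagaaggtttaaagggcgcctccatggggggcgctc
DDIT3: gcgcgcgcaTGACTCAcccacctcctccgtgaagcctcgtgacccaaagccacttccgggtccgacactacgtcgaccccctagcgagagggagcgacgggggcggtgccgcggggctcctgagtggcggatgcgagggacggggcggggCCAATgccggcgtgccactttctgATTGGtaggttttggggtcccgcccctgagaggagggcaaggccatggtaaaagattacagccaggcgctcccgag
PPP1R15A: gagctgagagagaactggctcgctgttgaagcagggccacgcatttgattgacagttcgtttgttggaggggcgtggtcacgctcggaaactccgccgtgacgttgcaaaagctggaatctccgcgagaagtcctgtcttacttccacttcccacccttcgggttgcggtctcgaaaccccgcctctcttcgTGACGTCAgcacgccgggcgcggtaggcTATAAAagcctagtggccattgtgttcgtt
HIST2H2AC: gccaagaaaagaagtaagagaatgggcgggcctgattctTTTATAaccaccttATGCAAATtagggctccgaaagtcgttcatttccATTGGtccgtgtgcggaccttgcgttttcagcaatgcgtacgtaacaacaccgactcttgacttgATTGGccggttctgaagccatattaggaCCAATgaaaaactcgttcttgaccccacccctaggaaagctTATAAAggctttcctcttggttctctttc
The ATF4-CHOP element of CHAC1 begins 209 bases before the start site, the AP-1 site of DDIT3 241 bases before it, the cyclic AMP response element of PPP1R15A 58 bases before it and the octamer of HIST2H2AC 197 bases before it. The CHAC1 element, the octamer and the HIST2H2AC TATAAA match at 211 bases lie on the strand opposite to the gene. Whether they serve the named gene or a neighbour was not tested.

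Such matches were counted over all promoters matched by symbol, 10509 of 13567 tested genes, 78 of 113 higher genes without a HIST symbol, 21 of 24 with one, and 55 of 73 lower genes. TGATGCAA was found in 0.438% of the tested promoters and in 3 of the 78 (3.85%), those of CHAC1, BCL2A1 and GOT1. Of the 8 higher stress list genes only CHAC1 was among them. The promoters of DDIT3, TRIB3, PPP1R15A and GDF15 were matched and did not hold this string. TGACTCA was in 2.61% of tested promoters, in 7 of the 78 (8.97%; DDIT3, SLC3A2, LPXN, MAP2K3, TM4SF19, UCN2 and LINC00460) and in 1 of the lower genes (1.82%; AVPR2). TGACGTCA was in 2.96%, in 5 of the 78 (6.41%; PPP1R15A, AVPI1, HS3ST3A1, VGF and ZNF593) and in 3 of the 21 histone promoters (14.3%). CACGTG (the E-box) was in 8.88% of tested promoters, 12.8% of the 78 and 3.64% of the lower genes. CGGAAG (the ETS core) was in 27.9%, 16.7% and 5.45%, and in 0 of the 21. GCGNGGGCG (an EGR site) was in 13.7%, 15.4% and 5.45%, and GGGCGG (the GC box, which can overlap it) in 66.9%, 57.7% and 54.5%. A match is a string of letters and not a bound site.

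Amino acid supply and tRNA charging each gave 2 higher genes. Of 15 amino acid transporters SLC3A2 and SLC43A1 met the rule (13.3%, list median 0.87), and of 20 cytosolic tRNA synthetases CARS and GARS did (10%, list median 0.72). At any gap 15 of the 20 synthetases lay above both controls and none below, against 2571 and 2376 of all 13567 tested genes. With overexpression alone the medians were 1.52 for the transporters (9 higher) and 1.21 for the synthetases (12 higher, 1 lower), and with knockdown alone -0.17 (2 higher, 2 lower) and 0.59 (2 higher). SLC3A2, the heavy chain shared by several amino acid exchangers, was at 142 and 174 RPKM in the controls and 772 and 377 in the treated libraries. SLC43A1, a carrier of large neutral amino acids, was at 4.32 and 4.96 against 15.7 and 13.2. GARS, the glycyl-tRNA synthetase, was at 58.9 and 66.2 against 229 and 159.6, and CARS, the cysteinyl-tRNA synthetase, at 42.3 and 43.1 against 121 and 109.5. CARS and SLC43A1 had treated values close to each other, whereas SLC3A2 was clearly higher with overexpression. SLC38A2 (88.5 and 72.5 RPKM in the controls, 326 and 34.4 treated) and QARS (103 and 103 against 33.8 and 149) were on opposite sides of the controls in the treated libraries. UPP1, the uridine phosphorylase, was at 13.2 and 13.2 against 152 and 43.9, and GOT1, an aspartate aminotransferase, at 21.8 and 20.7 against 125 and 49.2.

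**Figure D2:**
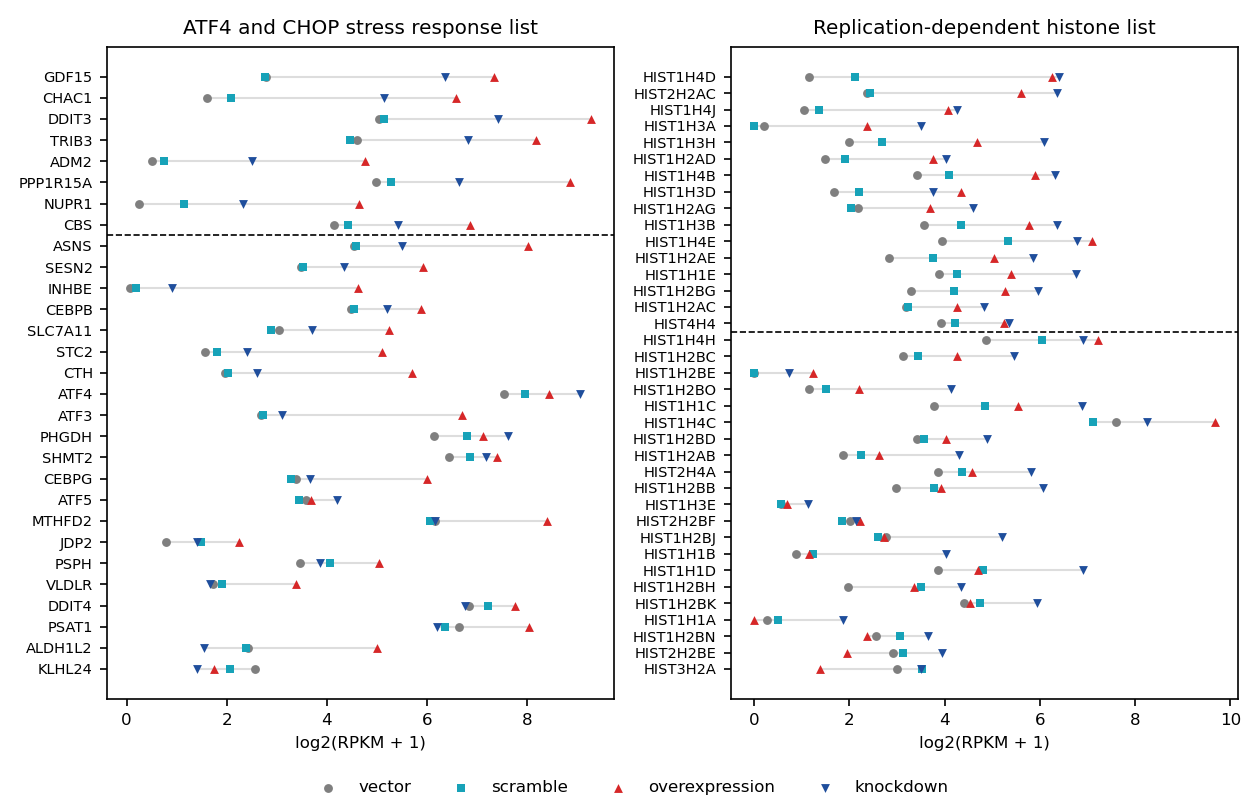
Every measured member of the stress response list (left) and the histone list (right) is drawn at its log2(RPKM + 1) in each library, ordered by gap, with a dashed line under the genes that met the rule (8 of 29 and 16 of 37). Overexpression is the rightmost symbol in the 8 stress genes above the line, and knockdown is in 14 of the 16 histone genes.

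Several secreted signals met the rule. IL24, an IL10-related cytokine, stood at 28.9 and 23.2 RPKM in the controls and 1622 and 289 in the treated libraries, a gap of 3.28. It was the 1 higher gene of 21 inflammatory chemokines and cytokines (4.76%, against 1.01% of all tested genes). CCL2, a monocyte-attracting chemokine, was the 1 lower gene of that list (18.4 and 21 against 7.67 and 8.03), 4.76% against 0.538%. IL11 was high with overexpression alone (6.5 and 14.3 against 352 and 9.69), and IL1A lay on opposite sides of the controls in the treated libraries (1.34 and 3.04 against 22.3 and 0.205). FST, the activin antagonist follistatin, was at 54.98 and 72.8 against 1011 and 256. With GDF15 it made 2 of 25 TGF-beta and BMP genes (8%), a list whose median was -0.14 (-0.44 with overexpression alone and 0.27 with knockdown alone). VGF, a secreted neuroendocrine peptide precursor, was at 55.03 and 83.9 RPKM in the controls and 644 and 280.4 in the treated libraries. TAC1, the substance P precursor, had unequal controls (6.75 and 1.298) below 82.1 and 28.6. GDNF, a growth factor that signals through RET, was at 6.07 and 5.33 against 17.3 and 18.1, with nearly equal treated values. UCN2, a peptide of the corticotropin-releasing family, was at 22.5 and 20.7 against 53.3 and 48.9, and the membrane-bound chemokine CX3CL1 at 0.462 and 0.535 against 2.903 and 2.52.

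Immediate early and feedback genes gave small counts. Of 28 immediate early genes EGR1, IER2 and NR4A1 were higher (10.7%, list median 0.47). With overexpression alone that median was 1.22 and 15 genes were higher and 2 lower, and with knockdown alone it was 0.04, with 5 higher and 1 lower. EGR1, a zinc finger transcription factor, was at 22.7 and 25.99 RPKM in the controls and 276 and 62.2 in the treated libraries, and the orphan nuclear receptor NR4A1 at 51.5 and 53.5 against 183 and 130.2. IER2 was at 43.3 and 52.2 against 145 and 106. KLF10 was high with overexpression and below both controls with knockdown (16.5 and 16.6 against 94.2 and 8.67), and MYC was high with overexpression and just above the controls with knockdown (18.3 and 15.4 against 87.1 and 20.01). Of 23 genes on a list named for ERK feedback, DUSP10, PHLDA2 and EGR1 were higher (13%). The list median was 0.53, which was 0.95 with overexpression alone and 0.02 with knockdown alone. EGR1 counts among the immediate early genes too, and DUSP10 acts on other kinases. The share thus describes the list and not ERK feedback as such. DUSP10, a phosphatase of JNK and p38 kinases, was at 8.97 and 8.503 against 47.9 and 34.8, and DUSP2, a phosphatase in no list, at 3.61 and 2.96 against 10.6 and 9.71. PHLDA2 was at 43.6 and 52.1 against 138 and 212. MAP2K3, a kinase upstream of p38, was at 40.4 and 45.1 against 94.1 and 105. Of 20 NF-kB factors and feedback genes 2 were higher (10%, median 0.53, or 0.89 and 0.35 with each treated library alone), the factor NFKB2 (18.1 and 20.5 against 95.9 and 47.6) and the inhibitor NFKBIB (11.4 and 11.5 against 34.8 and 39.99). After removal of a fitted trend with length and GC content neither reached the gap (0.82 and 0.96). Of 28 p53 targets GADD45B (3.25 and 3.27 against 31.6 and 9.37) and GDF15 were higher (7.14%) and PLK2 lower (3.57%). The list median was -0.09, and over all tested genes 1.01% were higher and 0.538% lower. GDF15 counts in the stress response and TGF-beta lists too. CDKN1A, the cell cycle inhibitor p21, was at 145 and 145 against 148 and 224.

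Histone genes formed the largest family. Of 37 replication-dependent histones in the list 16 were higher and none lower (43.2%, median 1.60), and of all 65 tested symbols starting with HIST 24 were higher and none lower (36.9%, median 1.54). The summed RPKM of the 65 was 565 and 767 in the controls and 2200 and 2740 in the treated libraries. In 20 of the 24 the knockdown library was the higher of the treated libraries, the reverse of the stress genes. HIST1H4D was at 1.23 and 3.32 RPKM in the controls and 75.9 and 83.7 in the treated libraries, a gap of 4.16. HIST2H2AC was at 4.14 and 4.41 against 47.7 and 81.4, and HIST1H3F at 1.84 and 4.84 against 46.3 and 67.5. These genes encode core nucleosome proteins H4, H2A and H3, and their copies are nearly identical, so how reads divide among them is not certain. HIST1H4J was at 1.05 and 1.58 against 15.8 and 18.1, and HIST1H3A was almost undetected in the controls (0.152 and 0) and at 4.14 and 10.3 in the treated libraries. The linker histone HIST1H1E was at 13.7 and 18.2 against 41.01 and 108. HIST4H4, a single gene on chromosome 12, met the rule narrowly (14.1 and 17.7 against 37.2 and 39.97). Among list histones short of it, HIST1H1B was at 0.828 and 1.35 in the controls and 1.21 and 15.2 in the treated libraries, high with knockdown only, and HIST3H2A at 7.04 and 10.6 against 1.61 and 10.4.

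Many promoters of the higher histone genes held 1 or more of the elements printed above for HIST2H2AC, the octamer least often. Of the 21 matched, 15 (71.4%) held TATAAA, 16 (76.2%) CCAAT and 7 (33.3%) the octamer, against 5.54%, 35.4% and 1.4% of tested promoters. Of the 78 other higher promoters 12.8% held TATAAA, 34.6% CCAAT and 0 the octamer. Histone genes that did not meet the rule were not counted apart, so these shares are not shown to be particular to the higher ones. DNA replication and mitosis genes, which are active in the same cell cycle phases or just after, are given beside the histones. Any part of the cell cycle in the histone values was not tested. None of 42 DNA replication genes met the rule (median -0.34, or -0.74 with overexpression alone and -0.07 with knockdown alone), and of 50 mitosis and cytokinesis genes the 1 that did was lower (median -0.33, or -0.54 and 0.00 in the same order), ANLN, a scaffold of the contractile ring, at 60.7 and 66.6 RPKM in the controls and 28.2 and 16.1 in the treated libraries. ASPM, a spindle pole protein in no list, was also lower (31.2 and 29.6 against 12.3 and 10.9). With the length and GC trend removed 10 of the 37 list histones met the rule, and the list median was 1.08.

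Noncoding RNAs of other kinds stood at the top of the higher genes. The vault RNA VTRNA2-1 was at 49.3 and 73.95 RPKM in the controls and 3463 and 2602 in the treated libraries, and VTRNA1-3 was listed at 0 in both controls and at 558 and 449 in the treated libraries. VTRNA1-1 was at 17.7 and 0 against 136 and 345, and VTRNA1-2 at 0 in both controls and 102 and 32.1. Vault RNAs are parts of a large cytoplasmic particle, and in transcripts this short a few reads give a high RPKM. The ratio of the treated values fitted 4 and 5 reads for VTRNA1-3 and 2 and 1 for VTRNA1-2, the smallest whole numbers that fit. For the multicopy RNAs SNAR-A4, SNAR-A12 and SNAR-A14, all at 0 in the controls, no treated library needed more than 3. SNAR copies are near-identical, and their single values are uncertain.

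Structural RNAs of the nucleus followed. TERC, the telomerase template RNA, was at 1.47 and 0.734 RPKM in the controls and 12.99 and 26.1 in the treated libraries. RMRP, the RNA of RNase MRP, was at 1313 and 1669 against 3449 and 9573, and RPPH1, that of RNase P, at 58.8 and 99.6 against 206 and 773. In these RNAs the knockdown library was the highest of the 4. Of 20 snoRNA host genes and nuclear long RNAs 7 were higher and none lower (35%, median 1.07). The host GAS5 was at 199 and 169.5 against 1087 and 458, SNHG8 at 179.8 and 161 against 524 and 364 and SNHG15 at 21.6 and 22.9 against 114 and 48.2. SNHG5 was at 58.5 and 51.9 RPKM in the controls and 163 and 203 in the treated libraries, and the host TAF1D, which also encodes a subunit of the RNA polymerase I factor SL1, at 50.5 and 48.6 against 120.2 and 112. MALAT1, a nuclear speckle RNA, was at 535 and 425 against 1076 and 2019. Only 2 of the 20 met the rule under a common upper quartile, and 2 with the length and GC trend removed. A small RNA lies in an exon of 10 higher genes (7.58% of those with a gene model, 2.71% of tested genes), among them SNHG5, SNHG8, SNHG11, SNHG15, TAF1D, MALAT1, CD22 and TMEM107, and of none of the lower genes. Whether reads of these small RNAs were counted to the longer genes was not tested. TMEM107, whose exon holds SNORD118, was at 4.26 and 4.56 RPKM in the controls and 16.2 and 24.2 in the treated libraries.

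Several lists held a single higher gene. Over all tested genes 1.01% were higher, and 1 gene in a list this small does not describe the list. Among these were FTH1 of 12 iron handling genes (8.33%) and of 24 NRF2 targets (4.17%), SQSTM1 of 34 autophagy and lysosome genes (2.94%) and PSMB7 of 31 proteasome subunits (3.23%). Others were BCL2A1 of 18 BCL2 family genes (5.56%), ERCC1 of 36 DNA repair genes (2.78%) and TRIML2 of 20 cancer-testis antigens (5%). MMP1 was the 1 higher of 28 proteases and inhibitors (3.57%), and FADS3 of 24 fatty acid genes (4.17%). FTH1, the ferritin heavy chain, was at 114 and 184 RPKM in the controls and 633 and 1692 in the treated libraries. SQSTM1, the autophagy receptor p62, was at 164 and 216 against 506 and 508, and the proteasome subunit PSMB7 at 162 and 171 against 391 and 490.4. PFDN2, a subunit of the chaperone prefoldin and in no list, was at 150.1 and 181 against 492 and 417. FTH1 was far higher with knockdown than with overexpression, while SQSTM1 had nearly equal treated values. Of ribosome assembly factors, for which there was no list, NOP58 (54.6 and 46.02 against 160 and 118), RPF2 (16.2 and 16.4 against 42.5 and 40.5) and ESF1 (15.7 and 11.7 against 35.6 and 56.5) were higher. RPL22L1, a paralog of a ribosomal protein, was at 11.6 and 13 against 48.4 and 47.7, nearly equal in the treated libraries. MMP1, interstitial collagenase, was low in the controls (0.569 and 0.358) and at 5.95 and 5.36 in the treated libraries, and the BCL2 family survival factor BCL2A1 was at 0.829 and 0.533 against 4.95 and 5.28. ERCC1, of nucleotide excision repair, was at 70.9 and 88.7 against 239 and 262, and SPHK1, which makes sphingosine 1-phosphate, at 9.72 and 8.66 against 31.1 and 55.9. TRIML2 was at 1.77 and 2.33 in the controls and 115 and 17.7 in the treated libraries, and APOE, a lipid carrier, at 0.912 and 2.43 against 9.196 and 14.7. In all, 84 of the 137 higher genes belonged to no list. The 76 of these without a HIST symbol had gaps of 1.01 to 8.82, with a median of 1.20.

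Some secreted and cell surface proteins were lower. IGFBP5, which binds insulin-like growth factors, was at 91.2 and 109.6 RPKM in the controls and 7.07 and 13.5 in the treated libraries, a gap of 2.66 and the only lower gene with a gap of 2 or more. Of 30 secreted matrix glycoproteins 4 were lower and none higher (13.3%, against 0.538% of all tested genes, list median -0.59). VCAN, the proteoglycan versican, was at 5.64 and 3.02 against 0.537 and 0.446, and HAPLN1, which links such proteoglycans to hyaluronan, at 63.6 and 38.3 against 5.27 and 16.8. EFEMP1, fibulin-3, was at 3.698 and 5.74 against 1.08 and 0.0535. IGFBP5 and HAPLN1 were lowest with overexpression, VCAN and EFEMP1 with knockdown. The secreted proteins ISLR (12.2 and 9.94 against 1.74 and 1.78), OLFML2A (18.4 and 12.8 against 1.49 and 3.01) and CRISPLD1 (9.196 and 8.61 against 2.26 and 2.13) were in no list and lay lower too. SULF1, which removes sulphate groups from heparan sulphate, was at 5.67 and 3.59 RPKM in the controls and 0.841 and 0.857 in the treated libraries, and the metalloprotease ADAM19 at 19.2 and 31.4 against 4.16 and 5.32. Abundant matrix genes were not among them: SPARC was at 925 and 936 against 425 and 669.7, and THBS1, at 269 and 294 against 282 and 33.3, was low with knockdown only.

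Protocadherins, homophilic adhesion molecules best known in the nervous system, gave 6 lower (12.8%, against 0.538% of all tested genes) and 0 higher genes of 47 tested PCDH symbols, a prefix chosen after its values were seen. PCDH10 was at 8.19 and 8.99 RPKM in the controls and 1.77 and 1.69 in the treated libraries, PCDH18 at 4.36 and 4.22 against 0.207 and 0.687, and PCDH9 at 5.52 and 4.15 against 1.19 and 0.842. These 3 made up the lower genes of the list of 18 cadherins and protocadherins (16.7%, median -0.91). At any gap 13 of the 18 had both treated values below both controls and 1 above, against 2376 and 2571 of all 13567 tested genes. PCDHB8 (7.35 and 6.79 against 1.26 and 1.74), PCDHA7 (4.601 and 5.17 against 1.67 and 1.46) and PCDHGA10 (6.88 and 8.78 against 2.28 and 2.65) lie in adjoining clusters on chromosome 5, whose alpha and gamma members share exons, so how reads divide among them is not certain. The classical cadherin CDH2 was at 47.9 and 44.1 against 30.2 and 26.8, lower in both treated libraries without reaching the gap. Among other adhesion molecules below both controls were ITGB4, the integrin beta 4 chain (24.5 and 62.9 against 7.93 and 0.954), FLRT3 (24.4 and 22.4 against 8.501 and 2.06), SLITRK5 (6.54 and 7.601 against 1.45 and 2.43) and DAG1, dystroglycan (114 and 114 against 24.7 and 53.1). The gap junction protein GJA5, connexin 40, was at 8.796 and 17.5 RPKM in the controls and 0.454 and 2.21 in the treated libraries, and HEG1, a receptor of endothelial junctions, at 24.1 and 24.8 against 10.4 and 5.33.

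**Figure D3:**
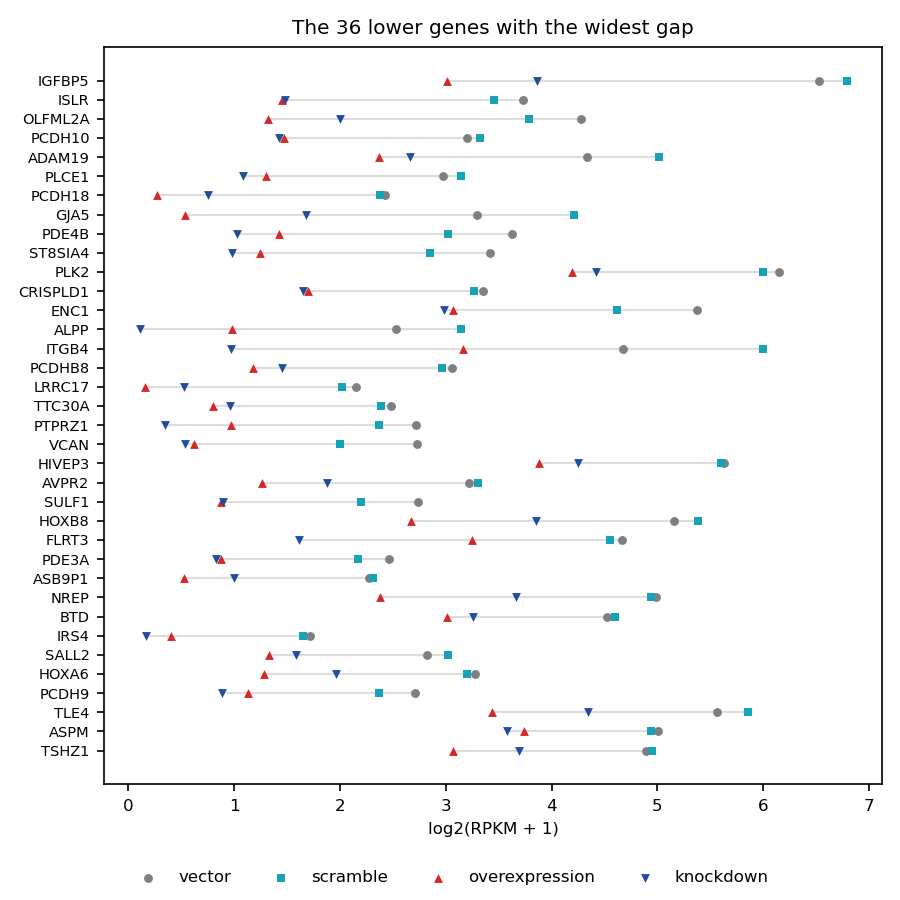
The 36 lower genes with the widest gaps are drawn at log2(RPKM + 1) in each of the 4 libraries. In every row both treated symbols lie left of both control symbols, as the rule requires, and IGFBP5 shows the widest gap (2.66).

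HOX genes, which set position along the body axis, gave 3 lower and 0 higher of 29 (10.3%, median -0.26, or -0.57 with overexpression alone and 0.15 with knockdown alone). HOXB8 was at 34.8 and 40.7 RPKM in the controls and 5.35 and 13.5 in the treated libraries, HOXB6 at 22.6 and 23.1 against 5.14 and 9.698, and HOXA6 at 8.68 and 8.22 against 1.43 and 2.898. In all 3 the overexpression library was the lowest. The antisense transcript HOXB-AS3 of the same cluster was at 12.6 and 11.3 against 3.102 and 4.602, and because strand use in counting is not given in the sources used here, its reads cannot be told apart from those of overlapping HOXB genes. Their neighbours HOXB5 (19.7 and 17.5 against 3.31 and 13.7) and HOXB7 (23.3 and 26.8 against 9.69 and 45.5) did not meet the rule. HOXB6 lay just short of the rule under a common median (0.996). Other transcriptional regulators among the lower genes were the corepressor TLE4 (46.4 and 56.9 against 9.86 and 19.3) and the zinc finger proteins TSHZ1 (28.8 and 29.8 against 7.38 and 11.9), SALL2 (6.09 and 7.15 against 1.51 and 1.998) and HIVEP3 (48.6 and 47.7 against 13.7 and 18.02).

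Other lower genes included a pair of phosphodiesterases, a phospholipase, a kinase and a Wnt ligand. PDE4B and PDE3A, which degrade cyclic AMP, were at 11.3 and 7.14 and 4.52 and 3.498 RPKM in the controls and at 1.68 and 1.04 and 0.832 and 0.779 in the treated libraries. PLCE1, a phospholipase C that binds Ras, was at 6.85 and 7.86 against 1.46 and 1.12, and the polo-like kinase PLK2 at 70.2 and 62.8 against 17.3 and 20.4. WNT5A, a ligand of noncanonical Wnt signalling, was at 21.3 and 15.3 against 6.53 and 5.97. In each of these genes the treated values lay close to each other. Of 41 guidance receptors and ligands EFNB2 (19.4 and 21.6 against 7.597 and 8.72) and EPHA7 (4.03 and 2.04 against 0.147 and 0.513) were lower (4.88%, median -0.41), and neither met the rule under a common median (0.93 and 0.97). The Hedgehog co-receptors CDON (9.86 and 10.2 RPKM in the controls, 2.81 and 4.31 treated) and GAS1 (2.61 and 2.36 against 0.511 and 0.601) were lower. The sialyltransferase ST8SIA4 was at 9.71 and 6.21 against 1.37 and 0.966, ENC1, an actin-binding Kelch protein, at 40.4 and 23.6 against 7.37 and 6.92, and PTPRZ1, a receptor phosphatase, at 5.597 and 4.18 against 0.956 and 0.275. TTC30A and TTC30B, near-identical genes of ciliary transport, were lower together, at 4.58 and 4.22 and 3.06 and 3.39 RPKM in the controls and 0.742 and 0.945 and 0.678 and 0.979 in the treated libraries. Of the 73 lower genes 54 were in no list, with gaps of 1.01 to 1.98 and a median of 1.19.

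**Figure D4:**
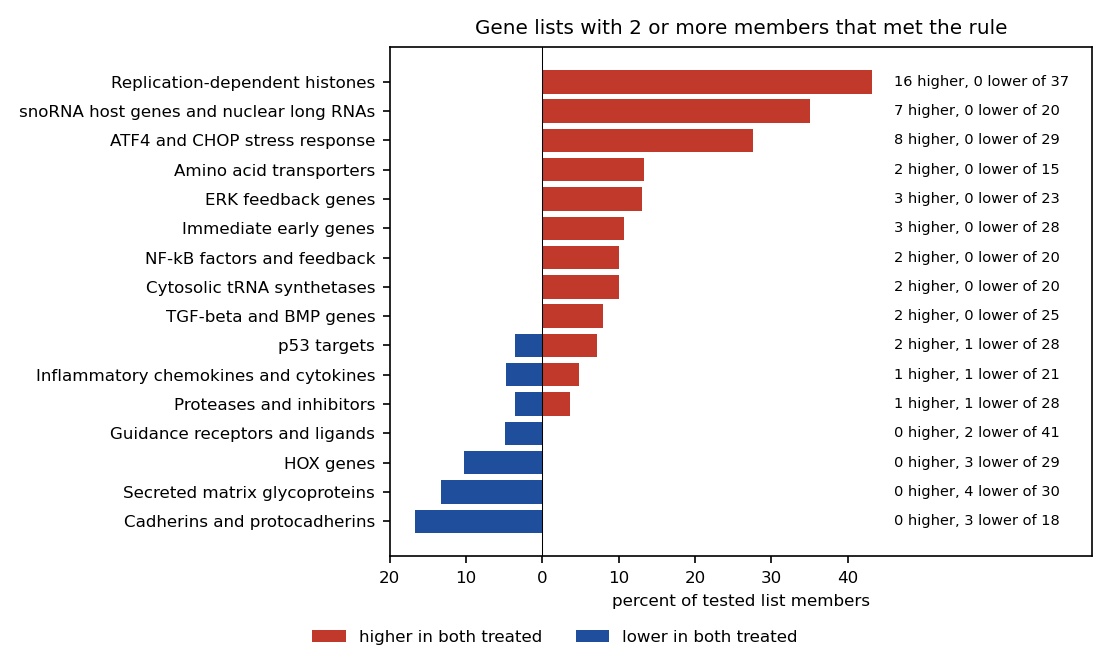
Bars give the percent of tested members of each gene list that were higher (red, right) or lower (blue, left) in both treated libraries, for lists with 2 or more such genes, with the counts beside them. Histones reach 43.2% and the cadherin list 16.7%, where all tested genes give 1.01% and 0.538%.

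Several large systems held no gene that met the rule. These were endoplasmic reticulum chaperones (0 of 23, median 0.26), heat shock and cytosolic chaperones (0 of 25, median 0.05, and -0.10 under a common upper quartile), interferon-induced genes (0 of 32, -0.24) and cholesterol synthesis (0 of 24, 0.27). None of 75 cytosolic ribosomal protein genes met it, although 27 had both treated values above both controls and none had both below (median 0.55). Over all 13567 tested genes these counts were 2571 and 2376. The ribosomal protein median was 1.06 with knockdown alone, where 33 were higher, and -0.03 with overexpression alone, where 0 were. The respiratory chain (0 of 64) and mitochondrial ribosomal proteins (0 of 59) each had a median of 0.43. With knockdown alone these were 1.08 and 0.97, with 29 and 20 higher genes, and with overexpression alone -0.16 and -0.13, with 0 and 1. A list of genes used by every cell had 0 of 33 and a median of -0.06 (0.30 with knockdown alone and -0.39 with overexpression alone). Cholesterol synthesis (0.79 and -0.39) and the cytosolic chaperones (0.26 and -0.46) also had medians of opposite sign in that order, and the endoplasmic reticulum chaperones had 0.29 and 0.47. A median above or below the 0.01 of all tested genes is given as a description of these 4 libraries.

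Short transcripts were more often higher and long ones more often lower. The median length of the longest annotated transcript was 1934 nt in the higher genes, 4871 nt in the lower genes and 3610 nt over all tested genes, and the median GC content was 55.4%, 44.2% and 48.5%. Of 84 genes of at most 500 nt, 20 were higher (23.8%) and 0 lower, and of 1107 genes over 8000 nt, 3 were higher (0.271%) and 14 lower (1.26%). Over all tested genes the knockdown median went from 1.40 in the shortest class to -0.61 in the longest, whereas the overexpression median was 0.51 in the shortest class and between -0.09 and 0.14 in the others. The 113 higher genes without a HIST symbol had a median length of 2211 nt. With a fitted trend in length and GC content removed from each library, 94 genes were higher and 66 lower, of which 75 and 41 were among the genes that met the rule as deposited. Of the 58 named genes with a length 41 still met it, and those that did not were CBS, EFNB2, EPHA7, GADD45B, HAPLN1, IER2, MALAT1, NEIL3, NFKB2, NFKBIB, PCDH9, PHLDA2, SLC3A2, SLC43A1, SNHG11, TAF1D and VCAN. Whether length or GC content had a part in any single gene was not tested. Under a common upper quartile CBS, IER2, MALAT1, SLC3A2, SNHG11 and TAF1D did not meet the rule, and under a common median C5orf15, CCL2, EFNB2, EPHA7, HOXB6, MALAT1 and NEIL3 did not. By chromosome, the largest counts were 25 higher genes on chromosome 6 of 688 tested there, 18 on chromosome 11 of 738, and 11 lower genes on chromosome 5 of 611. Over all tested genes 1.01% were higher and 0.538% lower. Most of the 25 carry HIST symbols, and chromosome 6 is the site of the main histone clusters.

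**Figure D5:**
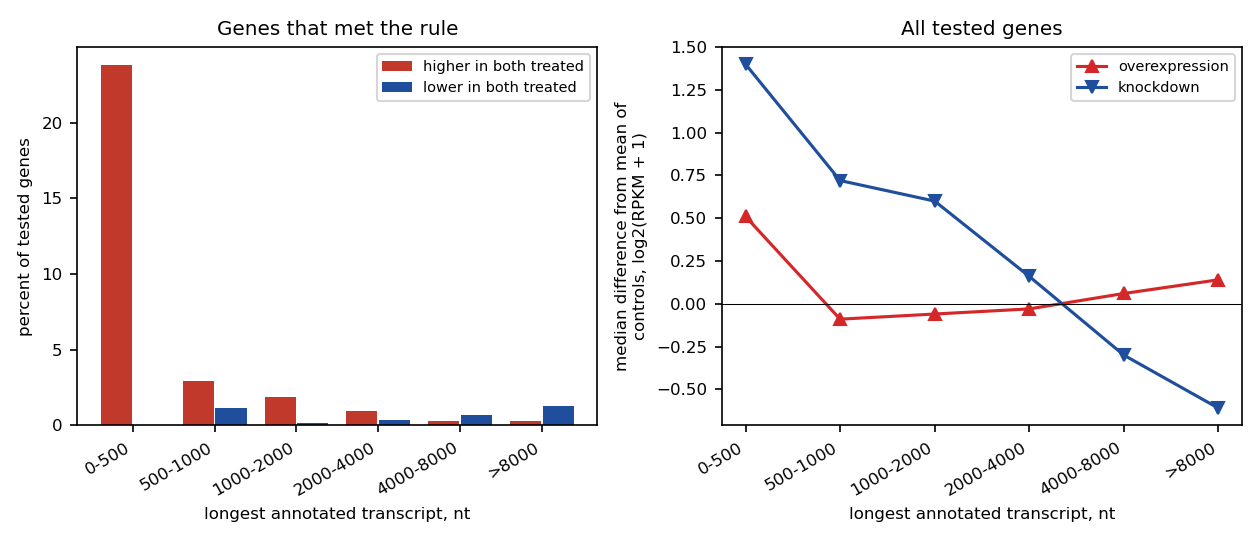
The left panel gives the percent of tested genes in each class of transcript length that were higher (red) or lower (blue) in both treated libraries, and the right panel the median difference of each treated library from the mean of both controls in that class. Higher genes take 23.8% of the shortest class and 0.271% of the longest, and the knockdown medians run from 1.40 to -0.61.

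Small RNA genes lay mostly above both controls. Of 168 SNORD genes, guides of ribosomal RNA methylation, 146 were higher and 0 lower (86.9%, against 57.7% of all 473 small RNA genes). Of 97 SNORA genes, guides of pseudouridylation, 88 were higher (90.7%), as were 18 of 24 SCARNA genes (75%), guides for spliceosomal RNAs. Medians were 4.99, 4.78 and 3.24 log2 units above the controls. Of 6 RNU genes, the RNAs of the spliceosome, 4 were higher (66.7%), with signal in every library. RNU12 of the minor spliceosome was at 19.2 and 51.9 RPKM in the controls and 1181 and 4541 in the treated libraries, RNU11 at 5.47 and 41.1 against 243 and 738, RNU6ATAC at 93.99 and 10.8 against 725 and 2256, and RNU4ATAC at 18.8 and 28.2 against 157 and 434. The controls themselves differed widely in RNU11 and RNU6ATAC, and the knockdown library was the highest in all 4. Against that, 27 of the higher SNORD and 17 of the higher SNORA genes were listed at 0 in both controls, among them SNORD37 (2062 and 1280 RPKM in the treated libraries) and SNORA17 (599 and 372). The ratio of the treated values in each of these 2 fitted 1 read and 1 read, the smallest whole numbers that fit, although any equal multiple fits as well. Such small numbers, up to 10, fitted 76 of the 283 small RNA genes that met the rule, and in 41 of these no library needed more than 3 reads.

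MicroRNA genes went both ways, with 17 higher (9.55%) and 10 lower of 178 (median 0.57). Of all 473 small RNA genes 57.7% were higher and 2.11% lower, and all 10 lower ones were microRNA genes. The RPKM are of the precursor gene and do not tell the mature arm. The mature sequences of members named here are shown to place them in seed families, since the seed (bases 2 to 8, in capitals) directs target pairing. RefSeq (GRCh38.p14) held 24 of the 27.
miR-21-5p: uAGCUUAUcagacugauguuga
miR-146a-5p: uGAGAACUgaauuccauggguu
miR-146b-5p: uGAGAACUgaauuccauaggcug
miR-125b-5p: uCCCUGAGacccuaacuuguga
miR-22-3p: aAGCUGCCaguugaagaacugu
miR-92b-3p: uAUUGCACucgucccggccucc
miR-146a-5p and miR-146b-5p share a seed, and both genes were higher. MIR146A was at 17.1 and 0 RPKM in the controls and 98.02 and 41.5 in the treated libraries, and MIR146B at 0 in both controls and 105 and 65.6. MIR21 was at 58.8 and 0 against 554 and 485, and MIR125B2 at 0 in both controls and 146 and 92.3. Of the lower ones MIR22 was at 12.97 and 8.35 in the controls and MIR92B at 19.1 and 28.7, and both were listed at 0 in the treated libraries. These values may rest on very few reads. The smallest whole numbers of reads that fitted were 1 and 1 in the treated libraries for MIR146B and MIR125B2 and 1 and 1 in the controls for MIR92B. MIR146A fitted 1 and 0 reads in the controls and 3 and 2 in the treated libraries, and MIR22 fitted 7 and 3 reads in the controls. Of the 27 microRNA genes that met the rule 18 needed no more than 3 reads in any library and 11 no more than 1. The gaps of microRNA genes listed at 0, such as MIR4498 (7.004, at 169.7 and 127 RPKM in the controls), may thus hang on 1 or 2 reads.

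Near the bound of 1 log2 unit, CBS (1.004) and MALAT1 (1.008) lay just inside and YARS, a tRNA synthetase (70.8 and 82.1 against 297 and 165, 0.998), and TMEM158 (0.999) just outside on the higher side. On the lower side the DNA glycosylase NEIL3 (1.006) and C5orf15 (1.012) lay just inside and AZGP1 (0.997) and the sulphatase SULF2 (48.9 and 67.04 against 24 and 19.7, 0.998) just outside.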

How the data were processed

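The assay was RNA sequencing of bead-purified poly(A) RNA from TRIzol extracts, with an Ion Torrent total RNA kit, per the labels' protocols. Per the submitters' processing notes, the build was hg19 and the tools included Cufflinks 2.2.0, SAMtools 1.1, TopHat2 2.0.13 and Bowtie2 2.2.4, with no role or order given. The deposited values are RPKM, per the file headers, 1 per gene symbol and library. The annotation and strand use were not given in the sources used here, nor were counts. Some 91 rows join several symbols.

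With Python 3.11.15, numpy 2.4.6, pandas 2.3.3 and scipy 1.17.1, values were taken as log2(RPKM + 1). Genes at 1 RPKM or more in any library were tested against the rule. With 1 library per group no test was made. Depth came from steps in low values of genes with a single transcript (2312 genes, length less 200 nt), and of the 351 to 397 values used per library 63.2% to 70.5% lay within 0.1 of a whole read. Length, GC content, gene type and chromosome came from GENCODE 29 (GRCh38), with lengths for 12933 of 13567 genes, 925 through an older symbol. Reads of genes under 300 nt came from ratios within 6% of small whole numbers. RefSeq gave promoters and microRNAs.

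The genes and the 58 gene lists were chosen with earlier results of these data known. Named genes were MAGEA1 and those of the title. To these came the 12 widest gaps each way at 5 RPKM or more, up to 4 genes per list with 2 or more members, the 3 widest per small RNA class and those nearest the bound. Other genes named were chosen after their values were seen. Results for a few genes are not reported here. Alternatives covered the pseudocount, scaling, a length and GC trend, the gap, the filter, each library's own control and leaving out each library.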

Additional observations from a re-analysis of the deposited data

How the results depend on the processing

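With 1 library per group, a gap has no replicate error. Depth limits the short RNAs most, but some longer genes also rest on few reads. HIF1A-AS2, for example, had an estimated 8 and 2 reads in the controls and 13 and 22 in the treated libraries. No paired analysis was possible because each group held 1 library, whose replicate number only names it. No named gene that met the rule changed side under any alternative run, an outcome largely fixed in advance by the rule. Of the title genes, which did not meet it, MAGEA1, JUN and IL8 were higher without the knockdown library, and JUN, IL8 and ARHGAP29 were lower without the overexpression library. With a pseudocount of 0.1, 218 genes were higher and 187 lower, in place of 137 and 73. A common upper quartile gave 99 higher and 123 lower. It shifted the tested genes' median by -0.13 log2, and a common median by 0.03. Setting each treated library against its own control only gave 189 higher and 119 lower. A gap of 1.5 log2 units left 50 and 16, and a gap of 1.5-fold gave 451 and 351. Lists with 3 or more members in 1 direction numbered 8 as deposited, 5 with the length and GC trend removed, 2 with a gap of 1.5 log2 units and 25 with a gap of 1.5-fold. The trend could not be fitted to small RNA genes. Leaving out 1 library, chosen after the data were seen, gave 211 to 1060 higher and 154 to 896 lower genes, 276 to 324 higher and 16 to 53 lower small RNA genes, and 11 to 36 such lists. The counts with all 4 libraries are below each of these ranges because the rule then asks for more.
Without the knockdown library 893 genes were higher and 727 lower, and without the overexpression library 1060 and 896. Without the vector library these were 224 and 154, and without the scramble library 211 and 167, with 22 and 53 small RNA genes lower in place of 10.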
